A study of Mus musculus with 32 samples.

Results

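Cyp2d9, Cyp2d10, Cyp2d22 and Cyp2d26 are 4 genes of the mouse Cyp2d family of cytochrome P450 enzymes, and their RNA was measured in 32 mouse livers. They were chosen by name: a probe belonged to the set if the array's annotation gave it one of these symbols and did not mark it as a control. Each gene had 1 probe, so the set is 4 genes out of 21710 genes that entered the tests. Another 6 Cyp2d genes and pseudogenes on the array (7 probes) are used for comparison.

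The livers came from male C57/BL6 mice, 4 mice in each of 8 groups, and each liver was hybridised to its own array. At baseline, 1 group ate a standard diet for 3 weeks and 1 ate a methionine and choline deficient (MCD) diet for 3 weeks, a diet that makes the liver fatty and inflamed. A group on each diet also received, for 2 weeks, a peptide that activates both the GLP-1 receptor and the glucagon receptor (the dual agonist), at 4.4 mg/kg/day given every other day; on MCD diet the agonist began after the opening week of the diet. The same 4 combinations were sampled 2 weeks after surgical removal of 70% of the liver (partial hepatectomy), with diet and agonist continued after surgery, so the hepatectomy groups had also been on diet and agonist for longer. No group carries a transgene or a mutation, and no sham-operated group was analysed here. The labels call each array of a group a biological replicate.

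Cytochrome P450 enzymes of the endoplasmic reticulum oxidise drugs, steroids and fatty acids with electrons passed on by NADPH cytochrome P450 reductase (Por) and, for some substrates, cytochrome b5 (Cyb5a). The human family has a single active member, CYP2D6, which handles many basic drugs, whereas the mouse has a cluster of related genes. Cyp2d9 is the testosterone 16-alpha hydroxylase of male mouse liver and is kept high in males by the pulsed pattern of growth hormone, which acts through the factor Stat5b and with the liver factor Hnf4a. Cyp2d22 is often treated as the mouse counterpart of CYP2D6. Cyp2d10 and Cyp2d26 are further liver members of the cluster.

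The 4 probes are 60-base oligonucleotides on chromosome 15 of build mm9: Cyp2d22 at chr15:82204377-82204436 on the minus strand, Cyp2d10 at chr15:82233276-82233335 on the minus strand, Cyp2d9 at chr15:82285582-82285641 on the plus strand and Cyp2d26 at chr15:82620575-82620634 on the minus strand. Whether a probe lies in an exon's coding part or a UTR was not looked up. Because these genes are close copies, a probe may also catch RNA of a neighbour, so each probe was compared with every other Cyp2d probe on the array. The probe of Cyp2d9 shares a run of 17 bases with the dimmer of the 2 probes of Cyp2d34, which is the longest run shared by any of these probes; both are shown here with the shared run in capitals.
Cyp2d9: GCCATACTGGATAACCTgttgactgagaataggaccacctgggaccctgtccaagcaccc
Cyp2d34: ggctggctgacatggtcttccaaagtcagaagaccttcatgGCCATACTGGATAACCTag
For Cyp2d10 the longest shared run was 8 bases (with Cyp2d40), and for Cyp2d22 and Cyp2d26 it was 7 (with Cyp2d37-ps). Each of the 4 probes was well above background on all 32 arrays and saturated on none. Binding of each probe to the full transcripts of the other Cyp2d genes was not checked here, so single members stay uncertain to that extent.

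Reference promoters (RefSeq, GRCm38.p6, 250 bases before to 50 bases after the start) were given for Cyp2d9, Cyp2d10 and Cyp2d26, and for Cyp2d11 and Cyp2d40 among the other Cyp2d genes. They are printed because the members differed in how far they moved with diet, and capitals mark matches to the core of an Hnf4a site (TGNNCTTTG) and to the core of an ETS factor site such as that of GABP (CCGGAA), both read on the minus strand, so that the capitals show their reverse complements.
Cyp2d9: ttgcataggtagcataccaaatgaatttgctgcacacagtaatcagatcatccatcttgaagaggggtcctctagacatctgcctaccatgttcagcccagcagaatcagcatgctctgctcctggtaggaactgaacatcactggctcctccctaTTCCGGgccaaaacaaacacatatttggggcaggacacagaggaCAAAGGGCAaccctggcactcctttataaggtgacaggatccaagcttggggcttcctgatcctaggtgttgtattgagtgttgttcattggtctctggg
Cyp2d10: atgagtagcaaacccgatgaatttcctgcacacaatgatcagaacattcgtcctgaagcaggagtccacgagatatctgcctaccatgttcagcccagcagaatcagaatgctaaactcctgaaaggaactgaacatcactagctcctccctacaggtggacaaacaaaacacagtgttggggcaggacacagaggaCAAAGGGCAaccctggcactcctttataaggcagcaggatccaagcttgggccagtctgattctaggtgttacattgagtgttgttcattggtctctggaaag
Cyp2d26: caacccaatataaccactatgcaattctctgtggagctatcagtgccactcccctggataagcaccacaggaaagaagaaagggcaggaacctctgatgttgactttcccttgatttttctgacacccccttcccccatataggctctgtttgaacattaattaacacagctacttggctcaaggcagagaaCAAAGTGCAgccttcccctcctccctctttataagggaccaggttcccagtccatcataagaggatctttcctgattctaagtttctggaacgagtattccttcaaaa
The Hnf4a-type core occurred once in each of the 5 promoters, beginning at base -50 in Cyp2d9, -53 in Cyp2d10 and -58 in Cyp2d26 relative to the start, against 6.36% of 32851 reference promoters. This form of the motif was chosen after these promoters had been read. The narrower form TGNACTTTG was found in Cyp2d26 alone of the 5, and in 1.41% of all promoters. The ETS core was found in Cyp2d9 alone, at base -94, and in 14.9% of all promoters. It holds the only CG of the Cyp2d9 promoter, at base -91. A STAT5-type core (TTCNNNGAA), searched like the others on both strands and overlapping none of them in these windows, had no match in any of the 5 and a match in 8.30% of all promoters. The promoters of Cyp2d9 and Cyp2d10 were identical at 82.9% of aligned positions, and those of Cyp2d9 and Cyp2d26 at 50.7%.

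Between 44.4% and 69.7% of spots were well above background per array, and the number of arrays limits the precision. The 8 groups lay on 4 slides, 2 groups per slide and 1 row per group. The diet comparisons at baseline and the agonist comparisons after hepatectomy each fell within a slide, where group and row cannot be told apart; the others ran between slides, where group and slide cannot be told apart. All 16 baseline arrays were scanned on one scanner and day and all 16 hepatectomy arrays on another scanner and day, so in every comparison of hepatectomy with baseline, the diet by hepatectomy interaction included, surgery cannot be told apart from scanner and scan day. The assignment of arrays to groups has an open point. Of the 32 columns of the submitters' processed table, 16 matched the array of another group (rank correlation 0.994 to 0.998 with the best match over all columns, against 0.871 to 0.941 with their own array), the MCD groups without agonist being exchanged with the standard diet groups with agonist, before and after hepatectomy. For 8 hepatectomy arrays of those same groups the slide position in the labels also differed from that in the scanner file. There the label gave the row that the table's exchange would give. For all 16 baseline arrays the label position was that of the scanner file, without an exchange. The scanner files were followed here. If the table's order were the true one, every value below for MCD diet without agonist would belong to the agonist on standard diet and the reverse, so the diet change at baseline would be named an agonist change. Hepatectomy on standard diet, hepatectomy on MCD diet with agonist and the diet by agonist interactions would stay as given. If the exchange held only after hepatectomy, the baseline comparisons would stay as given too. The diet and agonist changes after hepatectomy would then trade names, that of Cyp2d9 with diet (-1.36) included. Hepatectomy on MCD diet, hepatectomy on standard diet with agonist and the diet by hepatectomy interaction would not be what their names say. Replicate 1 of the standard diet group after hepatectomy also stood apart, with a median rank correlation of 0.950 with its group against 0.981 for the other 3, and changes that it moves by over 1.5 times or takes past the threshold are given without it as well. Replicate 4 of the standard diet group with agonist after hepatectomy stood apart more mildly (0.963 against 0.977 to 0.984), with a summed log2 level of macrophage markers of 8.81 against 7.20 to 7.28 and of cholangiocyte markers of 4.93 against 1.82 to 2.29. Fits without either array for the counts and for the other Cyp2d genes were chosen after seeing the data.

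A level is the log2 signal minus the 75th percentile of the array's signals, so 0 is the brightness of the 75th percentile spot and a step of 1 is a doubling. Levels of different probes are not compared. Cyp2d9 had the widest range of the 4, 6.48-fold between its highest and lowest group mean, against 2.20-fold for Cyp2d10, 1.98-fold for Cyp2d22 and 1.68-fold for Cyp2d26. In order, mean Cyp2d9 levels were 7.65 ± 0.14 on standard diet, 6.88 ± 0.29 on standard diet with agonist, 6.31 ± 1.33 on standard diet after hepatectomy, 6.10 ± 0.58 with agonist on standard diet after hepatectomy, 5.82 ± 0.54 on MCD diet with agonist, 5.48 ± 0.39 with agonist on MCD diet after hepatectomy, 5.19 ± 0.31 on MCD diet and 4.95 ± 0.28 on MCD diet after hepatectomy (SD, n = 4 each). All 4 standard diet means were above all 4 MCD means. The untreated standard diet group did not overlap the next group in that order; every later pair of neighbours overlapped.

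**Figure D1:**
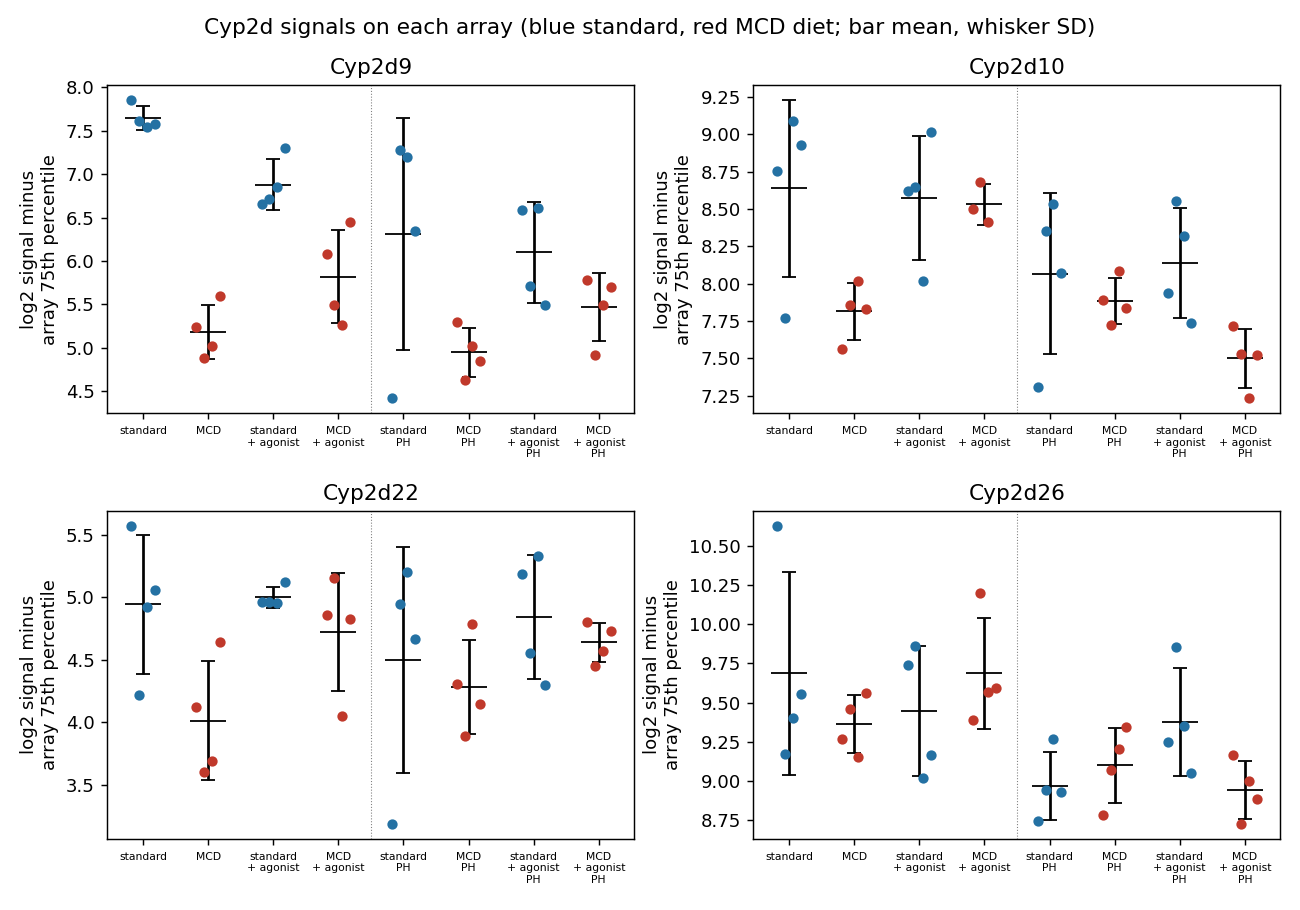
Level of each gene (log2 signal minus the array's 75th percentile) on each array, by group; blue points are standard diet and red points MCD diet, with the group mean as a bar and the SD as whiskers, and the dotted line parts baseline from hepatectomy (PH). Cyp2d9 on standard diet at baseline (7.54 to 7.85) lies above every other group, and 1 array of the standard diet group after hepatectomy lies at 4.42.

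For the other members no pair of neighbouring groups was separate. Cyp2d10, with 3 values on MCD diet with agonist because 1 spot was marked as an outlier, ran from 8.64 ± 0.59 on standard diet to 7.50 ± 0.20 on MCD diet with agonist after hepatectomy (SD, n = 4 each). Cyp2d22 ran from 4.998 ± 0.081 on standard diet with agonist to 4.01 ± 0.48 on MCD diet. Cyp2d26 was highest on MCD diet with agonist at 9.69 ± 0.35 and lowest on the same treatment after hepatectomy at 8.94 ± 0.19. Cyp2d9 and Cyp2d10 thus shared their highest group, and Cyp2d10 and Cyp2d26 their lowest. For Cyp2d26 the mean on standard diet was also 9.69, so its highest group is not set apart. Over the 12 comparisons between single groups, 6 of 48 changes passed the test (limma, Benjamini-Hochberg adjusted p under 0.05 over 21710 genes): 3 for Cyp2d9, 2 for Cyp2d10, 1 for Cyp2d22 and 0 for Cyp2d26, all of them lower. Among all genes, the share that passed in either direction ran from 0.00921% to 26% across these comparisons. In the comparisons with a member called, 5.99% to 15.3% of all genes passed as lower. The total of 6 is not read as a result about these 4 genes, and each call is given below beside its own share.

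**Figure D2:**
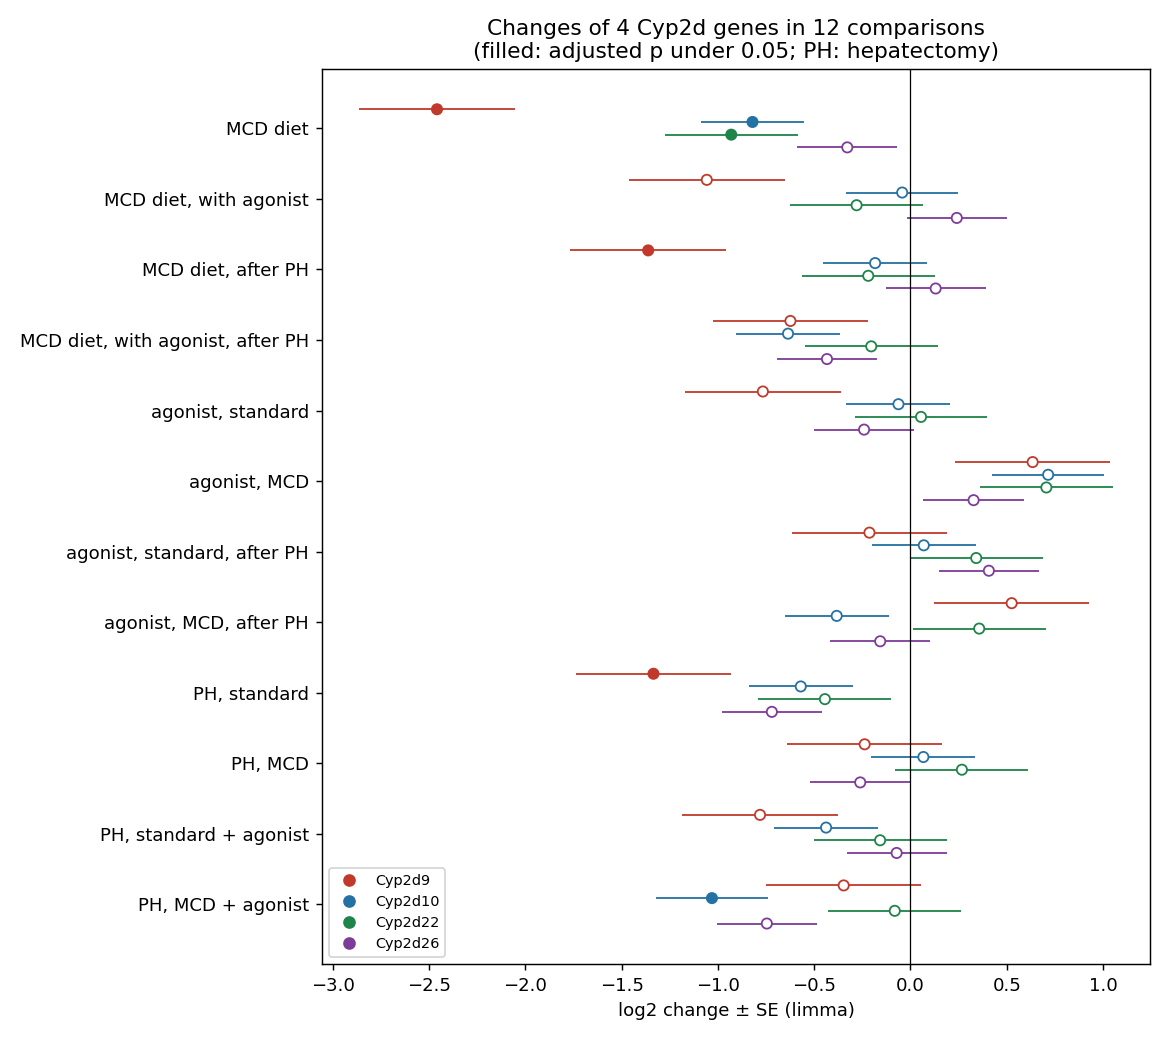
log2 change ± SE of each gene (limma) in the 12 comparisons between single groups, filled where the adjusted p is under 0.05. Cyp2d9 is the leftmost point for MCD diet (-2.46) and for hepatectomy on standard diet (-1.33), and no filled point lies to the right of 0.

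The comparison of MCD with standard diet at baseline asks what the deficient diet does to the liver before surgery. Cyp2d9 fell most of the 4. It measured 7.85, 7.61, 7.54 and 7.58 on standard diet and 5.25, 4.88, 5.03 and 5.59 on MCD diet. The highest MCD array was thus well below the lowest standard array. The log2 change was -2.46 ± 0.40 (SE), which is 5.50-fold lower, with an adjusted p of 8.19e-05 (limma). Cyp2d10 measured 8.76, 7.77, 9.09 and 8.93 on standard diet and 7.56, 7.86, 8.02 and 7.83 on MCD diet. Here 1 standard diet array, replicate 2, lay among the MCD arrays, and the log2 change was -0.82 ± 0.27 (1.77-fold lower, adjusted p = 0.0258, limma). Cyp2d22 measured 5.57, 4.22, 4.92 and 5.06 on standard diet and 4.12, 3.60, 3.69 and 4.64 on MCD diet. The same replicate 2 lay inside the MCD range, and the log2 change was -0.93 ± 0.35 (1.91-fold lower, adjusted p = 0.0462, limma). Cyp2d26 measured 10.63, 9.17, 9.40 and 9.55 against 9.27, 9.46, 9.15 and 9.56, groups that overlap almost fully. Its log2 change of -0.33 had a 95% interval from -0.86 to 0.20 and an adjusted p of 0.363 (limma). In all, 3 of 4 members passed as lower in this comparison, where 15.3% of all genes passed as lower and 26% in either direction, and 1 of 4 (Cyp2d9) had groups that did not overlap, against 16.8% of all genes lower in that way.

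Only the Cyp2d9 call held under all 9 other settings of the scanner or position-matched values, with log2 changes from -2.46 to -1.63, and in all 8 fits that left out an array, from -2.59 to -2.36. The calls of Cyp2d10 and Cyp2d22 rest on the scaling and on other settings. Both were lost in fits to the compared groups alone, and that of Cyp2d10 under normexp background correction (-0.54, adjusted p = 0.119, limma). With median scaling the changes of Cyp2d10 and Cyp2d22 were -0.45 (adjusted p = 0.315) and -0.56 (adjusted p = 0.265), and with quantile normalization -0.46 (adjusted p = 0.137) and -0.86 (adjusted p = 0.0690). The median change of all genes moved from -0.13 with 75th percentile scaling to 0.23 with median scaling and 0.00 with quantile normalization. Relative to that median, Cyp2d9 stood at -2.33, -2.33 and -2.22 under the 3 scalings, Cyp2d10 at -0.69, -0.69 and -0.46, Cyp2d22 at -0.80, -0.80 and -0.86, and Cyp2d26 at -0.20, -0.20 and 0.36. Under normexp background correction, Cyp2d9 stood at -1.45 relative to the median there, Cyp2d10 at -0.26, Cyp2d22 at -0.73 and Cyp2d26 at -0.10. The split of all called genes also moved, from 2320 higher and 3328 lower to 4423 and 1227 with median scaling and 2813 and 2525 with quantile normalization. Leaving out single arrays of this comparison took the Cyp2d10 call in 4 of 8 fits and the Cyp2d22 call in 6 of 8.

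**Figure D3:**
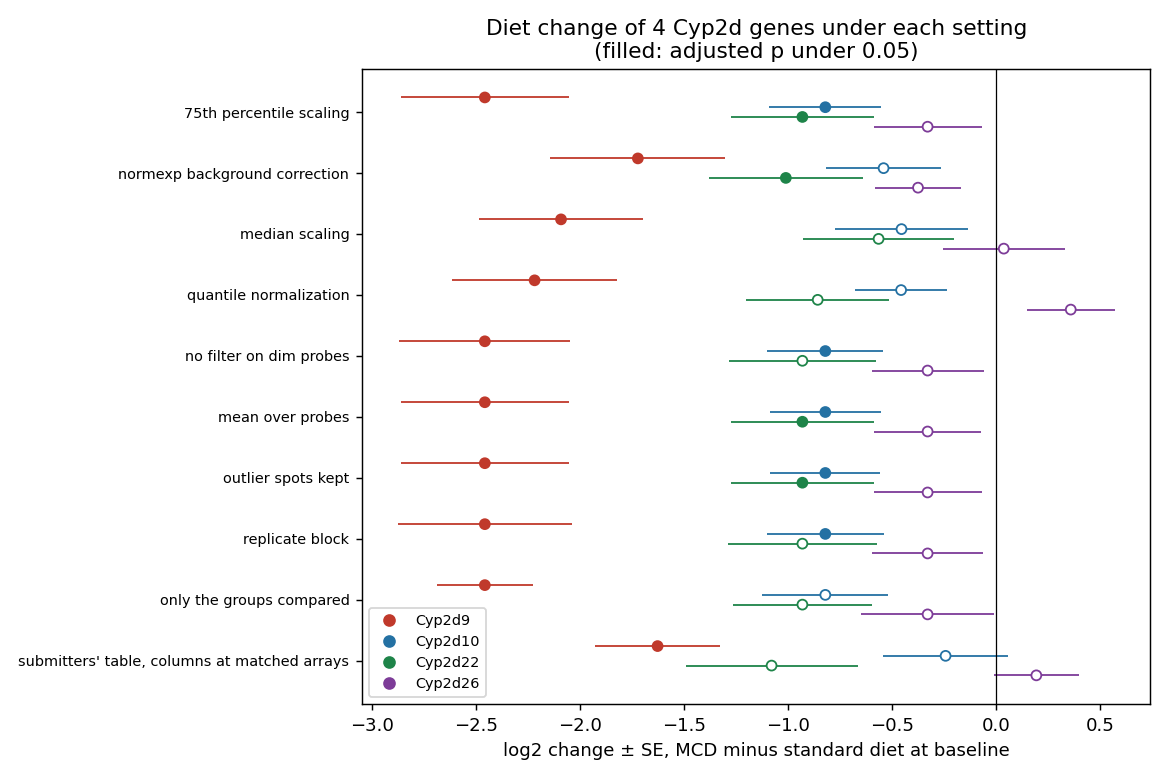
log2 change ± SE of each gene for MCD minus standard diet at baseline, under the reported setting (top) and 9 others, filled where the adjusted p is under 0.05. Cyp2d9 stays between -2.46 and -1.63 and filled in every row, while Cyp2d26 crosses 0.

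The other Cyp2d genes were lower as well. Of the 6, Cyp2d11 (-1.15 ± 0.29, adjusted p = 0.00395) and Cyp2d12 (-0.96 ± 0.34, adjusted p = 0.0376) fell, while Cyp2d13 (-1.26, adjusted p = 0.0535), Cyp2d37-ps (-1.05, adjusted p = 0.123), Cyp2d34 (-0.77, adjusted p = 0.163) and Cyp2d40 (-0.63, adjusted p = 0.397) did not pass the test (limma, log2 changes ± SE). The call of Cyp2d12 was lost in 7 of 8 fits that left out an array (adjusted p up to 0.0804), that of Cyp2d11 in none. Without either of the 2 arrays that stood apart, which lie outside this comparison but enter the spread, Cyp2d13 passed as well (adjusted p = 0.0220 and 0.0210). All 10 measured Cyp2d genes had a change below 0 and 5 passed, with a median log2 change of -0.95 against -0.13 for all genes. With median scaling 9 of 10 were below 0 and 1 passed (median -0.58 against 0.23), and with quantile normalization 9 of 10 and 1 (median -0.71 against 0.00). In the order of the genes along chromosome 15, the 5 that passed, from Cyp2d22 to Cyp2d12, are the first 5 of the 10 measured, and the 5 that did not are the last 5. This split rests on the threshold. Cyp2d13, at position 7, fell further (-1.26) than Cyp2d10 (-0.82), Cyp2d22 (-0.93) and Cyp2d12 (-0.96). With median scaling or quantile normalization Cyp2d9 alone passed. Cyp2d9, which lies between Cyp2d10 and Cyp2d12, had the largest fall of the 10.

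**Figure D4:**
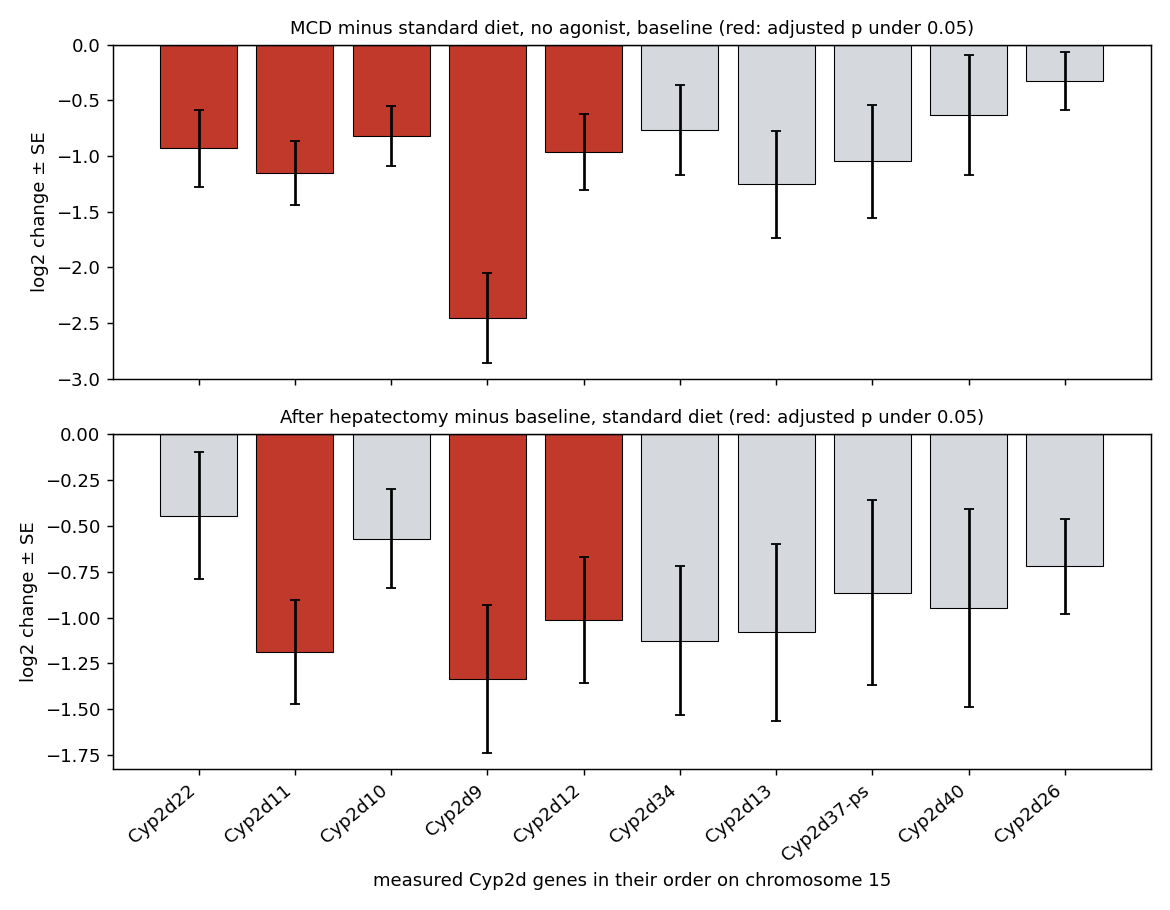
log2 change ± SE (limma) of the 10 measured Cyp2d genes in their order on chromosome 15, for MCD minus standard diet at baseline (top) and for hepatectomy minus baseline on standard diet (bottom), red where the adjusted p is under 0.05. All 20 bars point below 0, and at the top the 5 red bars are the 5 on the left. With median scaling or quantile normalization only 1 of the 10 genes passed for the diet.

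Genes that work with or control these enzymes also moved with the diet. Of 15 regulators linked to Cyp2d or to sex-biased liver P450 genes, 0 rose and 7 fell, among them Stat5b, which carries the growth hormone signal (log2 change -0.91, adjusted p = 0.00254), Bcl6, a repressor that competes with Stat5 (-2.05, adjusted p = 0.00465), and Nr0b2, the orphan receptor SHP (-1.76, adjusted p = 0.00891). Among 5 electron donors and partners, Por rose (0.82, adjusted p = 0.0355) while Cyb5r3, the b5 reductase (-1.56, adjusted p = 0.000804), and Pgrmc1, a heme-binding P450 partner (-0.66, adjusted p = 0.00756), fell. None of 9 genes of heme synthesis and breakdown passed, the lowest adjusted p being that of Ppox (-0.78, adjusted p = 0.0628). Of 15 male-biased liver genes 12 fell and 0 rose (median -3.35). Among them were C6 at -2.93 and adjusted p = 1.12e-05, and Cyp4a12a at -6.06 and adjusted p = 2.64e-05. Of 12 female-biased genes 8 rose and 0 fell (median 4.34), with Cyp2b13 at 7.10 and adjusted p = 5.34e-16. Of 16 other drug-metabolising P450 genes 2 rose and 9 fell (median -1.15), with Cyp2c38 at -2.76 and adjusted p = 1.92e-05, Cyp2c29 at -1.43 and adjusted p = 0.000223, and Cyp2b10, the usual marker of the receptor CAR, at 3.47 and adjusted p = 0.000188 (limma throughout). Cyp2d9 thus moved in the same direction as most male-biased genes on the same arrays. The counts and calls of these lists are given under the reported setting only. With median scaling, genes called lower in this comparison went from 3328 to 1227 and genes called higher from 2320 to 4423. The calls of Cyp2d10 (-0.82) and Cyp2d22 (-0.93) were lost there. Falls of about that size, such as those of Stat5b and Pgrmc1, may therefore rest on the scaling too.

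Markers of other cells moved too. Of 10 macrophage markers 8 rose and 0 fell (Trem2 at 4.62, adjusted p = 0.000187, limma), and their summed log2 level was 5.33 to 6.08 on standard diet and 6.66 to 8.003 on MCD diet. Lymphocyte markers went down, with a summed log2 level of 6.14 to 7.23 on standard diet and 4.06 to 4.37 on MCD diet. Of 8 stellate cell markers 2 rose and 0 fell, and of 7 neutrophil markers 2 rose and 0 fell. Of 9 hepatocyte markers, all well above background on all 32 arrays, 0 rose and 3 fell (Apoa1 at -1.13, adjusted p = 0.00136, limma), with a summed log2 level of 12.27 to 12.87 against 11.73 to 11.92. These marker counts and summed levels are also given under the reported setting only. The falls of Ass1 (-0.70) and Serpina1a (-0.79) were smaller than that of Cyp2d10 (-0.82), whose call was lost with median scaling. The count of hepatocyte markers that fell may therefore rest on the scaling. In whole liver, fewer hepatocytes and less of an RNA per hepatocyte cannot be told apart, and the part of cell makeup in the Cyp2d changes was not tested.

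With the agonist given, the same diet comparison at baseline had no member past the test, where 7.07% of all genes passed as lower and 15.2% in either direction. Cyp2d9 measured 6.66, 6.71, 6.85 and 7.30 on standard diet with agonist and 6.08, 5.50, 5.26 and 6.45 on MCD diet with agonist. These groups did not overlap, as was so for 6.73% of all genes in the lower direction. The log2 change was -1.06 ± 0.40 (adjusted p = 0.0758, limma); it passed with median scaling (-1.22, adjusted p = 0.0384), where the median of all genes was at -0.13, without replicate 4 of the MCD group (-1.27, adjusted p = 0.0497), and, through the spread alone, without replicate 1 of the standard diet group after hepatectomy (-1.06, adjusted p = 0.0111). Cyp2d10, Cyp2d22 and Cyp2d26 had log2 changes of -0.04, -0.28 and 0.24, with 95% intervals from -0.64 to 0.55, from -0.99 to 0.43 and from -0.29 to 0.77. The 2 diet comparisons at baseline share no arrays.

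After hepatectomy without agonist, Cyp2d9 was again lower on MCD diet, and 1 of 4 members passed where 5.99% of all genes passed as lower and 11.5% in either direction. It measured 4.42, 7.28, 7.20 and 6.34 on standard diet and 5.30, 4.63, 5.02 and 4.85 on MCD diet. The groups overlap through replicate 1 on standard diet, which was the lowest of all 32 arrays for Cyp2d9. The log2 change was -1.36 ± 0.40 (adjusted p = 0.0267, limma). Without that array it was -1.99 (adjusted p = 6.4e-05), whereas leaving out any of 5 other arrays of the comparison ended the call (log2 changes from -1.35 to -1.04, adjusted p from 0.0512 to 0.128). A fit to these 2 groups alone gave an adjusted p of 0.179. Cyp2d10, Cyp2d22 and Cyp2d26 had log2 changes of -0.18, -0.22 and 0.13 and adjusted p from 0.724 to 0.802. Without replicate 1 on standard diet these were -0.43, -0.66 and 0.06, none of them called (adjusted p from 0.162 to 0.927, limma). With the agonist after hepatectomy none of the 4 passed (Cyp2d9 -0.62, Cyp2d10 -0.64, Cyp2d22 -0.20, Cyp2d26 -0.43), where 8.23% of all genes did. Cyp2d10 was the only one there whose groups did not overlap: 7.94, 8.55, 8.32 and 7.74 on standard diet and 7.72, 7.53, 7.23 and 7.52 on MCD diet, as was so for 8.66% of all genes in the lower direction (adjusted p = 0.150, limma).

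Subtracting one member's level from another's on the same array removes the scaling, which allows the members' responses to be compared. All 6 pairs were compared in the 4 diet comparisons, 24 tests in all. The difference of Cyp2d9 minus Cyp2d22 was 2.28, 3.39, 2.62 and 2.52 on standard diet and 1.12, 1.28, 1.34 and 0.95 on MCD diet at baseline. MCD arrays were below standard arrays without overlap in this comparison and in the 3 other diet comparisons. Cyp2d9 thus shifted more than Cyp2d22 by -1.53 ± 0.26 (SE) at baseline, -0.78 ± 0.29 with agonist, -1.14 ± 0.28 after hepatectomy and -0.42 ± 0.14 with agonist after hepatectomy. Each has an exact two-sided permutation p of 0.0286, the smallest that 4 arrays against 4 allow, and an adjusted p of 0.0980 over the 24 tests, so none passed. With that smallest p, a test could pass only if most of the 24 reached it, so the lack of a pass decides nothing. Against Cyp2d10 and Cyp2d26 the baseline shift of Cyp2d9 was -1.64 ± 0.37 and -2.13 ± 0.30, with the same exact p of 0.0286 and adjusted p of 0.0980. Against these 2 members the shift did not hold in every diet comparison. With agonist at baseline it was -1.22 ± 0.31 and -1.30 ± 0.50 (exact permutation p = 0.0286 and 0.0571). After hepatectomy it was -1.18 ± 0.42 and -1.49 ± 0.63 (exact permutation p = 0.0571 and 0.0857). With agonist after hepatectomy it was 0.01 ± 0.38 and -0.19 ± 0.38 (exact permutation p = 0.971 and 0.629). Under normexp background correction the baseline shift against Cyp2d22 was -0.71 and that against Cyp2d26 was -1.35.

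**Figure D5:**
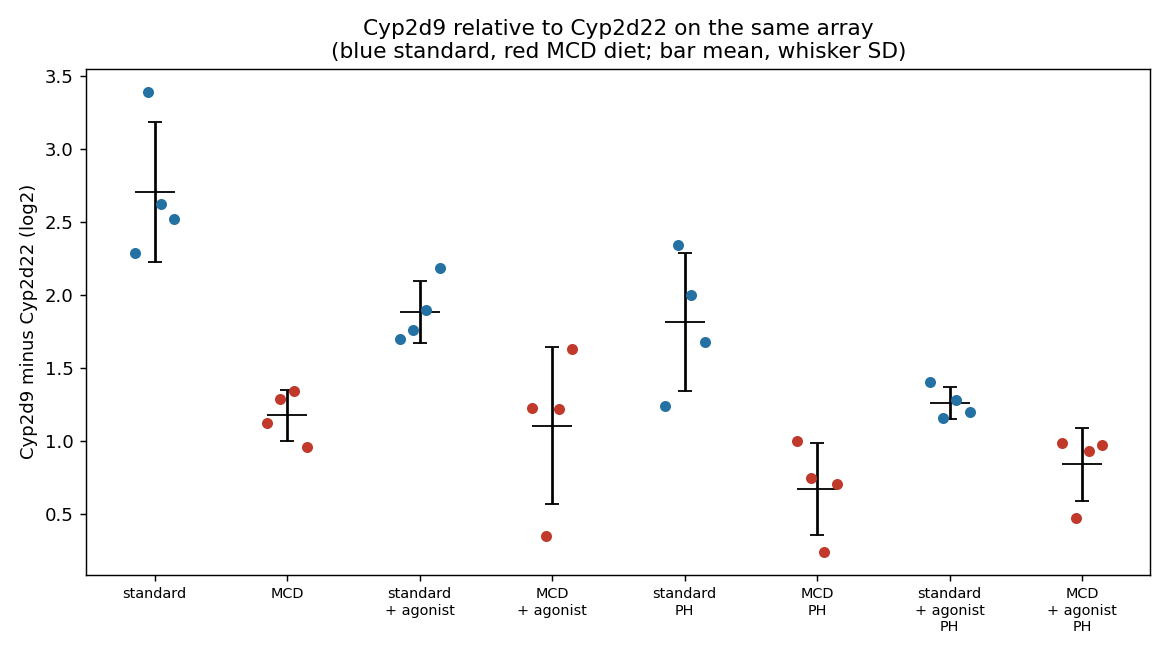
Cyp2d9 level minus Cyp2d22 level on each array (log2), by group; blue is standard and red MCD diet, with the mean as a bar and the SD as whiskers. The height itself depends on the probes and carries no meaning, but in each of the 4 diet pairs every red point lies below every blue point, 0.95 to 1.34 against 2.28 to 3.39 for the first pair.

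The agonist comparisons ask what the peptide does on each diet. No member passed in any of the 4. On standard diet at baseline, where 6.51% of all genes passed, Cyp2d9 had a log2 change of -0.77 ± 0.40 (adjusted p = 0.267, limma) and groups that did not overlap, as did 5.62% of all genes in the lower direction. Cyp2d10, Cyp2d22 and Cyp2d26 had changes of -0.06, 0.06 and -0.24. On MCD diet at baseline, where 13.3% of all genes passed, all 4 had changes above 0: Cyp2d9 0.63 ± 0.40, Cyp2d10 0.72 ± 0.29, Cyp2d22 0.71 ± 0.35 and Cyp2d26 0.33 ± 0.26, with adjusted p from 0.0976 to 0.421 (limma). The median of all genes there was 0.14 with 75th percentile scaling and -0.20 with median scaling. Cyp2d10 and Cyp2d22 stayed above 0 in all 9 other settings, whereas Cyp2d9 was at -0.17 under normexp background correction and in the submitters' table with matched columns, and Cyp2d26 at -0.02 with median scaling, -0.23 with quantile normalization and -0.18 in that table, none of them called. Cyp2d10 on MCD diet measured 7.56, 7.86, 8.02 and 7.83 without and 8.50, 8.68 and 8.41 with the agonist, groups that did not overlap (11.8% of all genes in the higher direction). After hepatectomy, 0.00921% of all genes passed for the agonist on standard diet and 0.405% on MCD diet. The members' changes ran from -0.21 (Cyp2d9) to 0.41 (Cyp2d26) on standard diet, where without replicate 1 of the group without agonist Cyp2d9 was at -0.84 and Cyp2d10 and Cyp2d22 turned from 0.07 and 0.34 to -0.18 and -0.10, none of them called. They ran from -0.38 (Cyp2d10) to 0.53 (Cyp2d9) on MCD diet, where the arrays of Cyp2d10 did not overlap (5.44% of all genes in the lower direction).

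Hepatectomy against baseline asks how far the regrown liver still differs 2 weeks after surgery, and shares its baseline arrays with the diet and agonist comparisons. On standard diet Cyp2d9 fell, and 1 of 4 members passed, where 7.44% of all genes passed as lower and 13.8% in either direction (1374 higher and 1615 lower, which became 1726 and 822 with median scaling and 1833 and 1227 with quantile normalization). Without replicate 1 of the hepatectomy group 1571 genes passed in place of 2989, and 0 of 4 members. The baseline arrays given above (7.54 to 7.85) all lay over the hepatectomy arrays (4.42 to 7.28), a separation seen in the lower direction for 9.87% of all genes. The log2 change was -1.33 ± 0.40 (adjusted p = 0.0272, limma), but without replicate 1 of the hepatectomy group it was -0.70 (adjusted p = 0.164). It was also not called without replicate 1 of the baseline group (-1.27, adjusted p = 0.0623). Cyp2d26 measured 8.74, 8.94, 9.26 and 8.93 after hepatectomy, and its log2 change was -0.72 ± 0.26 (adjusted p = 0.0620, limma). Cyp2d10 and Cyp2d22 had changes of -0.57 and -0.44, which became -0.32 and -0.0059 without replicate 1 of the hepatectomy group. All 10 Cyp2d genes had a change below 0 and 3 passed, Cyp2d9, Cyp2d11 (-1.19, adjusted p = 0.00690) and Cyp2d12 (-1.01, adjusted p = 0.0468), which became 2 with median scaling and 0 with quantile normalization. Without replicate 1 of the hepatectomy group all 10 were still below 0, but Cyp2d11 alone passed (-0.90, adjusted p = 0.0460), Cyp2d12 being at -0.58 (adjusted p = 0.255) and Cyp2d40 at -0.14 in place of -0.95. The call of Cyp2d12 was lost in 5 of 8 fits that left out an array.

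Replicate 1 of that hepatectomy group was low for Cyp2d9 (4.42 against 6.34 to 7.28 on the other 3 arrays), Cyp2d22 (3.18 against 4.67 to 5.20), Cyp2d10 (7.31 against 8.07 to 8.54) and Cyp2d40 (4.14 against 6.98 to 7.83). Cyp2d26 was at 8.74 there against 8.93 to 9.26. The same array had the highest summed log2 level of macrophage markers in its group (8.86 against 6.39 to 7.54), of cholangiocyte markers (5.70 against 1.76 to 2.87) and of stellate cell markers (6.22 against 3.93 to 4.75), and the lowest of hepatocyte markers (11.51 against 11.83 to 12.27). In the group as a whole 9 of 10 macrophage markers rose against baseline, and 4 of 10 without that array. The part of these cells in the low Cyp2d values was not tested.

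On MCD diet none of the 4 differed between hepatectomy and baseline past the test, with log2 changes from -0.26 (Cyp2d26) to 0.27 (Cyp2d22), where 9.46% of all genes passed. On standard diet with agonist none passed either, where 7.38% of all genes did. Cyp2d9 had a log2 change of -0.78 ± 0.40 (adjusted p = 0.233, limma) with groups that did not overlap, as was so for 10.3% of all genes in the lower direction. Without replicate 4 of the hepatectomy group 765 genes passed in place of 1602, and Cyp2d10 and Cyp2d22 went from -0.44 and -0.16 to -0.30 and 0.02. Cyp2d40 alone of the other Cyp2d genes passed there (-1.95, adjusted p = 0.0268). It measured 7.03, 7.02, 7.03 and 4.27 after hepatectomy, and without the low array, replicate 4, its change was -1.26 (adjusted p = 0.136, limma). On MCD diet with agonist Cyp2d10 fell, from 8.50, 8.68 and 8.41 to 7.72, 7.53, 7.23 and 7.52. The groups did not overlap (9.48% of all genes in the lower direction), and the log2 change was -1.03 ± 0.29 (2.04-fold lower, adjusted p = 0.0245, limma). It was 1 of 4 members called, where 6.3% of all genes passed as lower. That call was lost in 4 fits that left out an array (log2 changes from -1.05 to -0.94, adjusted p up to 0.0728), with median scaling (-0.97, adjusted p = 0.0800) and with quantile normalization (-0.59, adjusted p = 0.119). Cyp2d26 did not overlap there either, with -0.75 ± 0.26 (adjusted p = 0.0638, limma), while Cyp2d9 and Cyp2d22 had -0.35 and -0.08.

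Whether the diet change itself depended on the agonist or on surgery was tested as an interaction, and 0 of 12 interactions of the 4 members passed. For diet by agonist at baseline the Cyp2d9 value was 1.40 ± 0.57 (adjusted p = 0.107, limma), meaning a smaller diet change with the agonist; it passed in a fit to those 4 groups alone (adjusted p = 0.0360) and in the fit of all groups without replicate 1 of the standard diet group after hepatectomy (adjusted p = 0.0225). In that comparison 11.1% of all genes passed, and Cyp2d11 was the only Cyp2d gene among them (1.45, adjusted p = 0.0200). For diet by hepatectomy the Cyp2d9 value was 1.10 ± 0.57 (adjusted p = 0.291), where 2.6% of all genes passed, and 0.47 (adjusted p = 0.613) without that array. For diet by agonist after hepatectomy it was 0.74 ± 0.57 (adjusted p = 0.995), where 0.00461% passed, and 1.37 (adjusted p = 0.348) without that array.

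Array by array, Cyp2d9 and Cyp2d22 varied together. Over 32 arrays Pearson's r was 0.736, and 0.807 once each group's mean was taken out. Without replicate 1 of the standard diet group after hepatectomy these became 0.709 for both. Cyp2d9 and Cyp2d26 gave 0.329 and, within groups, 0.101. The other pairs with Cyp2d10 lay between 0.609 and 0.659 over all arrays. Arrays share depth, labelling and the scaling, so these are descriptions.

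The genes whose levels were most like each member's over the 32 arrays, among 15212 genes with a reference name, differed between members. For Cyp2d9 they were Pax2 (r = 0.924), Cyp27a1, a sterol hydroxylase of bile acid synthesis (0.909), Med1, a subunit of the Mediator complex (0.908), Cyp2c29, another drug-metabolising P450 (0.898), and Pnma3 (0.897). For Cyp2d10 they were the fatty acid oxidation enzyme Acaa2 (0.867), complement C3 (0.866), the apolipoprotein Apoa1 (0.834), Pdcd4 (0.834) and the apolipoprotein Apoe (0.830). For Cyp2d22 the highest values were those of Dalrd3 (0.750), 3110082I17Rik (0.745), the male-biased urinary protein gene Mup6 (0.721), Dhrs4 (0.720) and Sephs2 (0.717). For Cyp2d26 they were Rbfox2 (0.771), Glrx2 (0.756), Cox8a (0.722), Gm10420 (0.721) and Kctd14 (0.698). The likeness was closest for Cyp2d9 and loosest for Cyp2d22 and Cyp2d26. These r values include the differences between groups, and Cyp2d9 varied most over the arrays. Its SD was 1.00, against 0.51 for Cyp2d10, 0.54 for Cyp2d22 and 0.42 for Cyp2d26. Likeness within groups or without replicate 1 of the standard diet group after hepatectomy was not looked at.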

How the data were processed

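Liver RNA was extracted with Trizol and RNeasy columns, checked on a Bioanalyzer and labelled with Cy3, per the labels' protocols, and hybridised to 32 one-colour Agilent arrays. Per the file headers the deposited scanner files were made with Feature Extraction 10.7.3.1 and hold linear intensity values, with 59305 spots of 55681 probes that are not controls and probe positions on mm9. The deposited processed table is on the log2 scale, judged from its values, and limma is named in the submitters' processing notes; its column medians are 6.53 to 6.55 at baseline and 7.05 to 7.06 after hepatectomy, and its centring stays unknown. It served only as an alternative.

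Processed signals from the scanner files were divided by the 75th percentile of their array and put on the log2 scale. Outlier spots (0.264%) were left out, repeated spots of a probe averaged, and probes were kept when some group had all 4 of its arrays well above background, which left 30139 probes. The probe with the highest mean stood for its gene (5890 of 21710 genes had several). One limma fit over 8 groups (R 4.3.3, limma 3.58.1) gave all 15 contrasts, with Benjamini-Hochberg adjusted p under 0.05 as the threshold. Symbols came from the files, updated through RefSeq accessions of GRCm38.p6 (15222 tested genes matched). Scripts were tested on simulated data. Member differences were tested by exact two-sided permutation of arrays.

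Members, gene lists and tests were chosen with earlier results of these data known. Named genes are the 4 members, every measured Cyp2d gene, up to 3 genes per other list by adjusted p, and the 5 genes most correlated with each member. C6, Cyp4a12a and Cyp2b13 stand for their lists under that rule. Alternatives were normexp background correction (offset 50), median scaling, quantile normalization, a replicate block, fits to the compared groups alone, keeping dim probes, keeping outlier spots, averaging a gene's probes, leaving out each array and the submitters' table. The replicate number was also the column on the slide, and it was not taken to pair the samples.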

Additional observations from a re-analysis of the deposited data

Results flagged for a closer look

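The 4 arrays of Cyp2d22 on standard diet with agonist held a value far from the others: replicate 4 was at 5.12 while the nearest of the other 3 was at 4.96, a gap of 0.954 of the group's whole range, over the limit that Dixon's test sets for 4 values. The group's SD was only 0.08, and 5.12 lies inside the range of other groups. Chance flags about 1 in 20 groups, and 32 groups of the 4 members were looked at.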

How the results depend on the processing

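Of 516 member values under settings other than leaving out an array, 484 kept their direction and side of the threshold or stayed uncalled, as did 552 of 576 with an array left out; the cause of the changes below was not tested. The fall of Cyp2d9 with MCD diet at baseline passed in all of them except in the submitters' table with its columns as deposited (-0.83), where 16 of 32 columns match other groups' arrays; there Cyp2d22 was -0.0075 and Cyp2d10 was 0.52, the opposite direction. With the columns at their matched arrays, Cyp2d10 (-0.24) and Cyp2d22 (-1.08) with diet at baseline and Cyp2d9 with diet after hepatectomy (-1.26) were not called, and Cyp2d10 with diet and agonist after hepatectomy (-0.55) was.
With normexp, the calls of Cyp2d10 with diet at baseline (-0.54), Cyp2d9 with diet after hepatectomy (-1.28) and Cyp2d9 with hepatectomy on standard diet (-0.86) were lost. Cyp2d26 gained calls for diet with agonist at baseline (0.71), agonist on standard diet (-0.84), hepatectomy on standard diet (-0.88), hepatectomy on MCD diet with agonist (-0.68) and the diet by agonist interaction at baseline (1.09), as did Cyp2d10 for agonist on MCD diet (0.88).
With median scaling, Cyp2d10 (-0.45) and Cyp2d22 (-0.56) with diet at baseline and Cyp2d10 with hepatectomy on MCD diet with agonist (-0.97) lost their calls and Cyp2d9 with diet and agonist (-1.22) gained one. With quantile normalization, Cyp2d10 (-0.46) and Cyp2d22 (-0.86) with diet at baseline, Cyp2d9 with hepatectomy on standard diet (-0.94) and Cyp2d10 with hepatectomy on MCD diet with agonist (-0.59) lost theirs, and 1 gene instead of 2 was called after hepatectomy for the agonist on standard diet. Without the filter on dim probes, Cyp2d22 with diet at baseline (-0.93, adjusted p = 0.0616) and Cyp2d9 with diet after hepatectomy (-1.36, adjusted p = 0.0502) just missed the threshold.
Same-numbered arrays did not deviate together in every pair (correlations from -0.21 to 0.44), so the numbers were not taken to pair them. All such pairs were above 0 for diet with agonist at baseline (0.08 to 0.17) and diet after hepatectomy (0.07 to 0.23). The same was so for agonist on MCD diet at baseline (0.07 to 0.10), while every other comparison had pairs on both sides of 0. With the replicate block, Cyp2d22 with diet at baseline (-0.93) had an adjusted p of 0.0554, no other member call changed, and no count of called genes, an alternative chosen after seeing the data, moved by over 1.5 times (5706 against 5648 for diet at baseline).
Fitted with only the groups compared, Cyp2d10 (-0.82) and Cyp2d22 (-0.93) with diet at baseline, Cyp2d9 with diet after hepatectomy (-1.36) and Cyp2d9 with hepatectomy on standard diet (-1.33) lost their calls, and the diet by agonist interaction of Cyp2d9 (1.40) gained one. Counts of called genes in such fits, also chosen after seeing the data, were 1248 against 3292 for diet with agonist at baseline, 267 against 1414 for agonist on standard diet, 1556 against 2499 for diet after hepatectomy, 1063 against 2989 for hepatectomy on standard diet and 984 against 2181 for hepatectomy on MCD diet with agonist.
Leaving out each array in turn gave log2 changes with diet at baseline from -1.11 to -0.67 for Cyp2d10 and from -1.17 to -0.72 for Cyp2d22. For Cyp2d9 they ran from -1.27 to -0.87 with diet and agonist at baseline, from -1.99 to -1.04 with diet after hepatectomy and from -1.66 to -0.70 with hepatectomy on standard diet. Hepatectomy on standard diet gave from -0.86 to -0.32 for Cyp2d10 and from -0.89 to -0.41 for Cyp2d26, both called without replicate 2 of the baseline group, and hepatectomy on MCD diet with agonist gave from -1.10 to -0.94 for Cyp2d10.
Median scaling also moved the split of called genes from 1758 higher and 1534 lower to 1018 and 1860 for diet with agonist at baseline, from 718 and 696 to 970 and 297 for agonist on standard diet, from 1928 and 952 to 445 and 2181 for agonist on MCD diet (1192 and 1237 with quantile normalization), from 1199 and 1300 to 1364 and 835 for diet after hepatectomy, from 40 and 48 to 25 and 53 for agonist on MCD diet after hepatectomy, from 1403 and 650 to 890 and 810 for hepatectomy on MCD diet and from 813 and 1368 to 1071 and 621 for hepatectomy on MCD diet with agonist (1169 and 967 with quantile normalization). All 4 probes were well above background on all 32 arrays.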
